A study of Arabidopsis thaliana with 4 samples.

Results

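A set of 11 nuclear genes that the gene table names only by a locus number had clear signal in whole Arabidopsis roots and low signal in protoplasts released from such roots and passed through a cell sorter. These genes were selected on measured values. A probe set had to match 1 gene with a bare locus number (AT1G to AT5G), to have a deposited signal over 200 on both whole-root arrays, and to have one under 60 on both sorted-protoplast arrays. The loci from AT2G29290 to AT2G29370 were left out. The 11 genes came from 11885 probe sets of genes named in this way. Of these 2710, outside the loci left out, were over 200 on both whole-root arrays. The 11 thus made up 0.406% of the probe sets with enough whole-root signal for the rule. Some locus-named genes have more than 1 probe set, and each is counted. The 11 genes are AT1G54540, AT1G74460, AT2G23540, AT2G48130, AT3G18510, AT3G58550, AT4G13860, AT4G38080, AT5G08250, AT5G09480 and AT5G12420. All are listed as protein-coding, with nothing but the number or a clone-based synonym for a name, and no protein function is given to them here.

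Root RNA of Columbia seedlings, 6 days after germination, was measured on 4 Affymetrix ATH1 arrays, 2 per preparation. Both preparations had received 140 mM NaCl for 1 hour beforehand, and no array without salt is among the 4. Whole roots were harvested intact. For sorted protoplasts the salt-treated roots were turned into protoplasts, which went through the sorter with every cell kept, so no cell type was picked out. The comparison asks what protoplasting and sorting do to transcript levels, with salt-regulated genes as the stated interest. Signals are MAS5 intensities, a summary of the probes of a probe set on a linear scale, and the 4 deposited arrays have trimmed means of 250.02 or 250.03. Whether the 2 replicates of a preparation were grown apart is not stated in the labels. Any p-value given here thus rests on how far these samples lie apart, which may be technical. The p-values and moderated SEs draw part of their variance from other probe sets, so they do not show the spread of 1 gene alone.

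Protoplasts are plant cells freed from their walls, usually with enzymes that digest cellulose and pectin. A root is built of an epidermis with hair and non-hair cells, a cortex, an endodermis with wall barriers, and a stele with the vascular tissues, and cell types differ in how readily their walls are digested. Cells also go on making and degrading RNA during digestion and sorting. In a bulk sample, fewer cells of a type and less RNA per cell cannot be told apart, and that holds for each gene described here.

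AT4G38080 differed most between the preparations. Its signal in whole roots was 1820 and 2452.5, and in sorted protoplasts it was 13.1 and 34.5. Both whole-root values were high, both protoplast values were low, and the lower whole-root value was 52.8 times the higher protoplast value. The group means were 2136 ± 447 and 23.8 ± 15.1 (SD, n = 2), a ratio of 89.9, and the log2 difference was -5.80 ± 0.40 (moderated SE). Here and below a log2 difference is sorted protoplasts minus whole roots on the scale of log2(signal + 16), which understates the change where a signal is low.

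For AT2G23540 whole roots gave 370 and 854 and sorted protoplasts 18.1 and 4.06, a ratio of group means of 55.2 and a log2 difference of -4.47 ± 0.46. Both protoplast values were no higher than the highest signal of control probe sets that plant RNA should not match, so these sizes depend on values near the low end of the scale, and the log2 difference ran from -5.84 with an offset of 1 to -3.08 with one of 64. The same holds for the 13.1 of AT4G38080, whose difference ran from -6.56 to -4.64. The arrays of each preparation were far apart for AT2G23540, with whole-root array 2 at 2.31 times array 1 and protoplast array 2 at 0.224 times array 1. Its lower whole-root value was still 20.4 times the higher protoplast value. For the remaining 9 genes the ratio of means lay between 5.22 and 13.2.

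**Figure D1:**
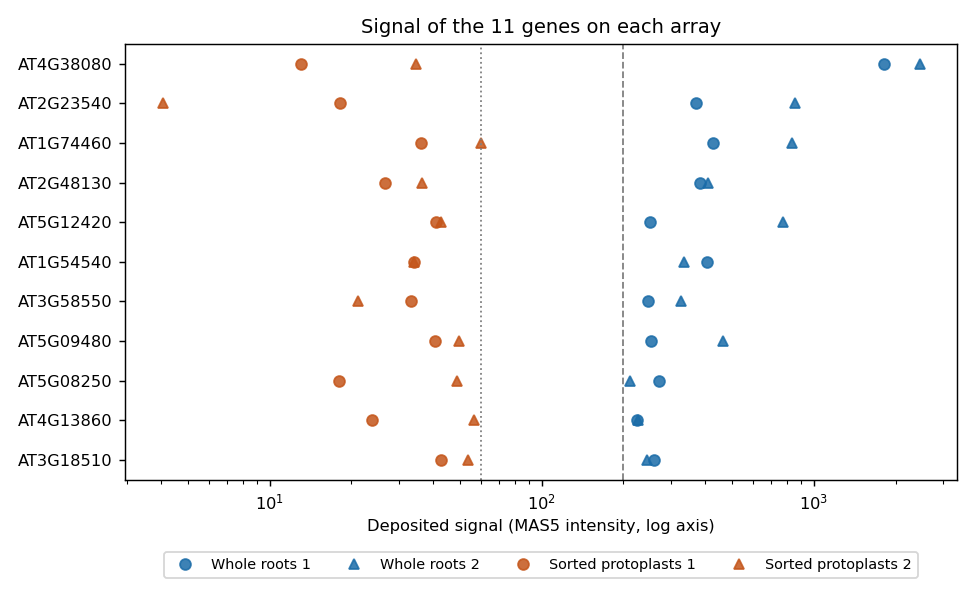
Deposited MAS5 signal on a log axis for each of the 11 genes (rows, ordered by log2 difference), with whole roots in blue, sorted protoplasts in orange, circles for replicate 1 and triangles for replicate 2. The dotted line is the selection threshold of 60 and the dashed line that of 200, and the gap between them is what the selection imposed.

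In the next 4 genes the log2 difference was near -3. AT1G74460 had 427 and 835 in whole roots and 35.9 and 59.7 in sorted protoplasts, a log2 difference of -3.29 ± 0.42. AT2G48130 had 382 and 410 in whole roots and 26.5 and 36.2 in sorted protoplasts, a log2 difference of -3.13 ± 0.34. In both preparations the arrays lay close together for AT2G48130, while those for AT1G74460 were 1.95-fold apart in whole roots. AT5G12420 had 249.8 and 773 in whole roots and 41.0 and 42.6 in sorted protoplasts, a log2 difference of -2.99 ± 0.49. AT1G54540 had 407 and 334 in whole roots and 33.9 on each protoplast array, a log2 difference of -2.95 ± 0.34. AT5G12420 had the widest gap between whole-root arrays of the 11 genes, and AT1G54540 was among the 3 genes that were lower on whole-root array 2 than on array 1.

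The other 5 genes had log2 differences between -2.82 and -2.06. AT3G58550 had 247 and 327 in whole roots and 33.0 and 21.1 in sorted protoplasts, a log2 difference of -2.82 ± 0.35. AT5G09480 had 252 and 466 in whole roots and 40.7 and 49.6 in sorted protoplasts, a log2 difference of -2.56 ± 0.39. AT5G08250 had 271 and 211 in whole roots and 17.9 and 48.7 in sorted protoplasts, a log2 difference of -2.45 ± 0.40. For AT3G58550 and AT5G09480 the higher whole-root value was on array 2, and for AT5G08250 it was on array 1. AT4G13860 had 223 and 227 in whole roots and 23.9 and 56.3 in sorted protoplasts, a log2 difference of -2.17 ± 0.38. AT3G18510 had 259 and 244 in whole roots and 42.6 and 53.7 in sorted protoplasts, the difference nearest to 0 among the 11 at -2.06 ± 0.34. For both genes the whole-root arrays nearly coincided, and the protoplast arrays of AT4G13860 were 2.36-fold apart.

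**Figure D2:**
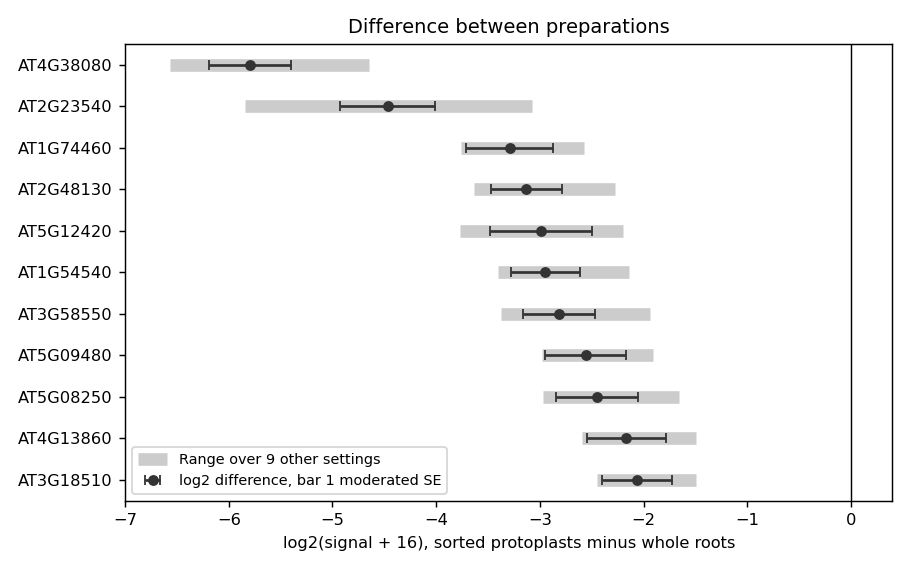
Difference between preparations for the 11 genes, in log2(signal + 16) of sorted protoplasts minus whole roots. Points are the fitted values with 1 moderated SE, and grey bars span the values under 9 other settings (2 offsets, 3 array scalings and each of the 4 arrays left out), and the value nearest to 0 is -1.49.

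The thresholds fixed the sign of the difference. Among the other 2699 probe sets of locus-named genes over 200 on both whole-root arrays, the median log2 difference was -0.37. Of these, 16.9% were below -1 and 1.37% below -2. The lowest of them was -3.73. Of the 2699 probe sets, 33 had a difference at or below that of AT3G18510. A difference at or below the median of the 11 genes, -2.95, was found for 4. All 11 passed the filter on low signal and all were called lower in limma's test across 13647 probe sets, of which 561 or 4.11% were called lower at an adjusted p under 0.05. Nothing is read from that count, because the same contrast chose the genes. In the other direction 870 probe sets, or 6.38%, were called higher. As deposited, 60.8% of the calls were thus higher. Scaling the arrays on 18 spike-in probe sets instead gave 681 lower and 425 higher calls, 38.4% of them higher, and the median difference of all tested probe sets moved by -0.41 on the log2 scale, from -0.16 to -0.57.

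The array carries 27 control probe sets for Bacillus genes, which plant RNA should not match, and their signals were low on all 4 arrays. They were picked as a reference after the data were seen. Their highest signal was 19.0 on protoplast array 1 and 22.8 on protoplast array 2. AT2G23540 was at or below these values on both protoplast arrays. AT4G38080 and AT5G08250 were so on array 1 and AT3G58550 on array 2, each of them on that array alone. The remaining 7 genes were above them on both arrays. Probe sets differ in how brightly they bind, so this is a reference for the level of unmatched probes and not a detection call for a gene, and no detection calls were used here.

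The thresholds cut through a continuum of values. Just inside the protoplast threshold were AT1G74460, whose higher protoplast value was 59.7, and AT4G13860 at 56.3. Just outside it were AT4G36610 at 60.6 and AT4G23680 at 60.9, with 250 and 733 and with 571 and 776 in whole roots, respectively. Just inside the whole-root threshold were AT5G08250, whose lower whole-root value was 211, and AT4G13860 at 223. The genes nearest to either line thus differ from their neighbours across it by small steps. AT2G22510 was just outside the whole-root line, with 198 and 308 in whole roots and 4.29 and 21.8 in sorted protoplasts, and AT3G26550 had 181 and 182 in whole roots and 49.8 and 38.9 in sorted protoplasts. With thresholds of 150 and 80 the rule held for 41 genes, the same 11 among them, and with 300 and 40 it held for 4 of them, AT1G54540, AT2G23540, AT2G48130 and AT4G38080. With array medians set equal or with quantile normalization 10 genes met the rule, AT2G22510 in place of AT1G74460 and AT5G08250. With spike-in scaling 23 did, including all 11. Read on 3 arrays the rule held for 26 genes without whole-root array 1, 12 without whole-root array 2, 16 without protoplast array 1 and 35 without protoplast array 2, so that whole-root array 1 and protoplast array 2 kept most candidates out.

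**Figure D3:**
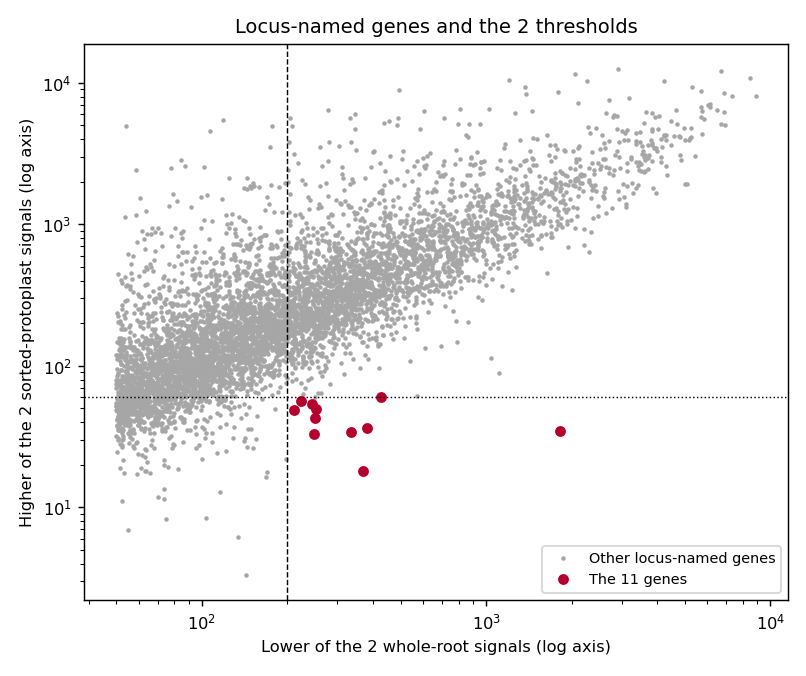
Each point is a probe set of a locus-named gene with over 50 on both whole-root arrays. It is plotted by the lower of its whole-root signals against the higher of its protoplast signals, both on log axes. The dashed line is at 200 and the dotted line at 60, the 11 genes (red) fill the corner the rule defines, and AT4G38080 stands far to the right of the others at 1820.

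The same thresholds were met by 16 other probe sets. Only 1 of 1482 nuclear probe sets whose gene has a symbol met them, that of TRI, a tropinone reductase gene, with 230 and 372 in whole roots and 12.8 and 34.9 in sorted protoplasts. Of the 500 probe sets of genes with a symbol and over 200 on both whole-root arrays this was 0.2%, against 0.406% for locus-named genes. The 0.2% is TRI alone, which lies in the locus range that was left out of the 0.406%. No difference between the classes is read from that. Of the 16, another 14 were not listed in the annotation, and 1 matched several genes. The annotation leaves 8730 probe sets unlisted, and whether their genes have symbols is not known here. The 14 had log2 differences from -4.60 to -1.73. Of the 8 probe sets in the locus range left out, TRI was the single one that met the thresholds. The opposite pattern, over 200 on both protoplast arrays and under 60 on both whole-root arrays, was found for 26 probe sets of locus-named genes. The pattern described here was found for 11. Both counts hold for the deposited scaling. Spike-in scaling raised the 11 to 23, and the 26 was not recounted there. How many probe sets were over 200 on both protoplast arrays was not counted, so the 26 has no share beside it.

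The whole-root arrays did not give the 11 genes the same level. The rule set no limit on the ratio of the 2 arrays, but it used both values. Needing over 200 on each array affects which ratios can appear. That cut was uneven, as the rule held for 26 genes without whole-root array 1 and for 12 without array 2. In 8 of the 11 the signal was higher on whole-root array 2, and in 4 it was more than 1.5 times that on array 1. The 4 were AT5G12420 at 3.10 times, AT2G23540 at 2.31 times, AT1G74460 at 1.95 times and AT5G09480 at 1.85 times. The other 7 had ratios from 0.781, in AT5G08250, to 1.35, in AT4G38080. Among the 2699 other probe sets of locus-named genes over 200 on both whole-root arrays, 45.2% were higher on array 2 and 10.4% by more than 1.5 times. In the 37 of them with a log2 difference between preparations under -2, 51.4% were higher on array 2 and 24.3% by more than 1.5 times. The share higher on array 2 was 28.2% in the 419 from -2 to -1, 42.1% in the 1429 from -1 to 0 and 59.2% in the 814 at 0 or more. Of the 14 unlisted probe sets that met the same thresholds, 12 were higher on whole-root array 2 and 6 by more than 1.5 times. These shares are descriptions, genes are not independent replicates, and both whole-root arrays also enter the difference between preparations. The whole-root arrays also differed in the ratio of 3' to 5' signal of control genes, which is higher where RNA is more degraded or less fully amplified. It was higher on whole-root array 1 for each of 6 probe pairs, such as 15.0 against 4.56 for the first GAPDH pair, 22.2 against 7.03 for the second actin pair and 2.49 against 1.97 for the second ubiquitin pair, and for 5 of the 6 whole-root array 1 was the highest of the 4 arrays. The protoplast arrays differed too, in both directions, with 3.45 on array 1 and 9.96 on array 2 for the first GAPDH pair and 41.5 and 27.2 for the first actin pair. The part of the 3' to 5' ratio in the ratios between whole-root arrays was not tested.

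**Figure D4:**
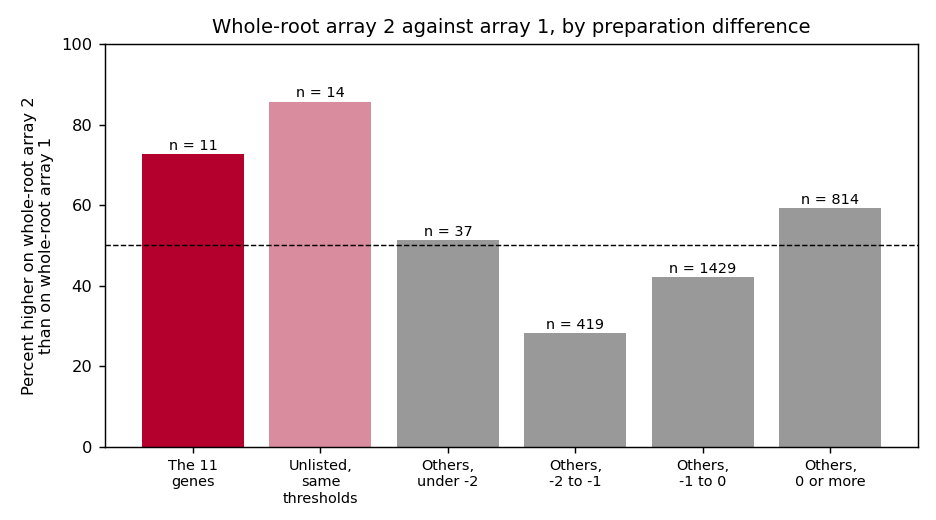
Bars give the percent of probe sets with a higher signal on whole-root array 2 than on array 1. The number of probe sets is above each bar, and a dashed line is at 50%. The 11 genes (dark red) and the 14 unlisted probe sets that meet the same thresholds (light red) stand at 72.7% and 85.7%. Grey bars show the other probe sets of locus-named genes over 200 in whole roots by their log2 difference between preparations.

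In sorted protoplasts 8 of the 11 genes were higher on array 2 than on array 1, by up to 2.71 times in AT5G08250. AT2G23540 and AT3G58550 were lower there, at 0.224 and 0.637 times, and AT1G54540 had 33.9 on both. All these values were under 60, beside median signals of 80.7 on protoplast array 1 and 79.0 on array 2. Though 7 of the genes were above the Bacillus controls on both arrays, an order between the protoplast arrays is not read from such values.

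With whole-root array 1 left out, the differences of AT5G12420, AT2G23540, AT1G74460 and AT5G09480 were larger, at -3.77, -5.06, -3.76 and -2.98, and without whole-root array 2 they were -2.20, -3.88, -2.82 and -2.14. For AT2G48130 the same values were -3.18 and -3.08, and for AT4G13860 -2.18 and -2.16. No gene changed sign under any of the 9 other settings, and no difference came nearer to 0 than -1.49, reached by AT4G13860 and AT3G18510 with an offset of 64. The signs follow from groups that do not overlap, which the rule required.

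The 11 genes lay scattered over the 5 chromosomes, 2 on each of chromosomes 1 to 4 and 3 on chromosome 5, and none was within 2 protein-coding genes of another. Their neighbours did not enter the rule. Of the 44 protein-coding genes that lie 1 or 2 places to either side, 25 had a probe set annotated to them alone. Among these 25, 16 passed the signal filter and none met the 2 thresholds. The other 19 had no such probe set in the annotation, which lists no gene for 8730 probe sets. Their signal is therefore not known here. In limma's test 1 of the 16 was called lower and 1 higher, 6.25% in each direction beside 4.11% and 6.38% of all tested probe sets, and 3 had an unadjusted p under 0.05. The median log2 difference of the 16 neighbours was -0.34, beside -0.16 for all tested probe sets. Both called neighbours belong to AT1G74460. AT1G74470, next to it and listed with the synonym geranylgeranyl reductase, an enzyme that supplies the side chain of chlorophyll and tocopherols, had a mean of 297 ± 34.5 (SD, n = 2) on the whole-root arrays and of 99.4 ± 21.9 on the protoplast arrays, and fell by 1.45 ± 0.35 on the log2 scale (limma adjusted p = 0.0301). AT1G74450, 2 places to the other side, had 234 ± 218 and 1240.4 ± 551 and rose by 2.61 ± 0.62 (limma adjusted p = 0.0284). The first call was lost without whole-root array 1 (-1.56), whole-root array 2 (-1.34) or protoplast array 2 (-1.25) and with spike-in scaling (-1.85), and the second without whole-root array 1 (1.57). Both were lost with no filter on low signal.

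Other neighbours were not called. AT4G38090, next to AT4G38080, had 378 and 232 in whole roots and 217 and 186 in sorted protoplasts, which differ by -0.53 in log2 (95% interval -1.37 to 0.31). AT4G38070, on its other side, had at most 32.3 on any array. AT2G23530, beside AT2G23540, had 23.8 and 21.0 in whole roots and 9.19 and 3.17 in sorted protoplasts, below the filter. AT3G58540, beside AT3G58550, had 489 and 184 in whole roots and 163 and 113 in sorted protoplasts, which differ by -1.07 in log2 (95% interval -2.12 to -0.02) and did not pass (limma adjusted p = 0.183). AT5G12410, next to AT5G12420, had 705 and 538 in whole roots and 478 and 469 in sorted protoplasts, which differ by -0.37 in log2 (95% interval -1.16 to 0.42).

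**Figure D5:**
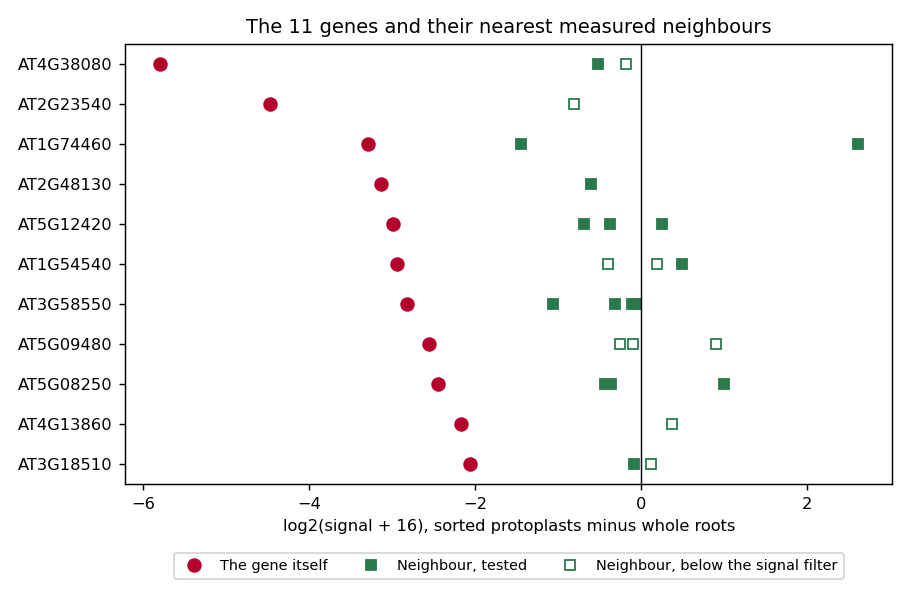
Log2 difference of sorted protoplasts minus whole roots for each of the 11 genes (red circles) and for their measured neighbours 1 or 2 protein-coding genes away (green squares, open where the neighbour was below the signal filter). The lowest neighbour is AT1G74470 at -1.45, and the farthest to the right is AT1G74450 at 2.61.

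Few markers of root cell types could be set beside these genes. Of 56 marker genes in 8 lists 7 had a probe set annotated to them alone and 6 were tested. Among the lists is that of 5 shoot photosynthesis genes, which stand for no root cell type, with 2 measured and 2 tested. In the endodermis, phloem and root cap lists 0 members had such a probe set in the annotation, so these lists could not be read. Of 18 root hair markers 2 were tested and both fell. EXPA18, an expansin that loosens the walls of growing root hairs, had 741 and 812 in whole roots and 121 and 150 in sorted protoplasts, a log2 difference of -2.39 ± 0.35 (limma adjusted p = 0.00301). EXPA7, another root hair expansin, had 607 and 1001 in whole roots and 161 and 222 in sorted protoplasts, a log2 difference of -1.95 ± 0.39 (limma adjusted p = 0.0135). Of 5 non-hair epidermis markers 1 was tested, ATMYC1, a bHLH gene of epidermal patterning, which fell by 2.29 ± 0.38 on the log2 scale from 366 and 244 to 62.0 and 37.1. With either whole-root array left out, the differences of these 3 genes stayed between -2.57 and -1.60. Their calls were lost there, in fits where calls fell across all probe sets. The call of EXPA7 was also lost with no filter on low signal.

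The stele marker PHV, at 0.65 in log2 (95% interval -0.09 to 1.39), did not pass. The cortex marker CO2 was below the filter, with at most 32.8 on any array. The shoot genes LHCB4.1, a light-harvesting protein gene, and RCA, which encodes rubisco activase, had differences of -0.97 (95% interval -2.0 to 0.06) and -0.65 (95% interval -1.43 to 0.14), and neither passed. LHCB4.1 passed only without protoplast array 1, at -1.62. The part that a loss of hair or other cells has in the low signal of the 11 genes was not tested.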

How the data were processed

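Probes for the 4 ATH1 arrays (2 of whole roots, 2 of sorted protoplasts) came from a 2-cycle Affymetrix amplification, per the labels. Each deposited value is a linear intensity of a probe set. The submitters' processing notes name MAS5; no version is stated there. The deposited intensities had a trimmed mean of 250.02 or 250.03 on each array. 0 columns were left unmapped. Replicates had r = 0.938 (whole roots) and 0.910 (sorted protoplasts) over tested probe sets.

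The table holds 22810 probe sets, 64 of them controls. Of the others 13513 had 1 gene in the platform annotation, 503 several and 8730 none listed. 13436 matched the RefSeq gene table (TAIR10.1), which gave symbols and gene order. Coordinates are left out, because the sources used here name no genome build for the array. Protein and promoter sequences were not used here, so the planned reading of protein relatives was replaced by neighbouring genes, a choice made after seeing the data.

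Differences on log2(signal + 16) were fitted over all 4 arrays in R 4.3.3 by limma 3.58.1 (eBayes with a trended prior, 2 residual and 7.56 prior degrees of freedom), without controls and the 40% of probe sets with the lowest mean, which set a filter near a signal of 51.3. Adjusted p-values are Benjamini-Hochberg's over 13647 probe sets. The fit was run on simulated data with independent normal noise of the fitted variance, as its model assumes. That run checks the working of the fit only, and not the selection of genes or the nature of these replicates. The genes and lists were chosen with earlier results of these data known. Genes named in full were the 10 with the highest whole-root signal and the 10 with the largest difference, which covers all 11, those nearest the thresholds, and the markers with the largest rise and fall among those called. The other measured markers and the neighbours were chosen for naming with their values in view. Alternatives were other thresholds, offsets, filters, scalings, prior variances, a replicate block and each array left out, where a group of 1 array was assumed to vary like the other. The labels do not say that the replicate numbers pair samples, and samples with the same number deviated from their group means with a correlation of -0.156.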

Additional observations from a re-analysis of the deposited data

How the results depend on the processing

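The count of 11 genes became 41 with thresholds of 150 and 80, 4 with 300 and 40, 23 with spike-in scaling, and 12 to 35 with 1 array left out. Across all probe sets the calls, 561 lower and 870 higher, became 137 and 394 with no filter, 107 and 393 at an adjusted p under 0.01, 425 higher with spike-in scaling, and 25 to 649 lower and 167 to 989 higher with 1 array left out. The low ends came from the whole-root arrays (54 and 192 without array 1, 25 and 167 without array 2) and the high ends from the protoplast arrays. With the replicate block they were 787 and 1123, a change that ended no call of a marker or neighbour, and with crossed replicate numbers 922 and 1137. The 2 root hair markers called lower became 1 with no filter or at 0.01, and 0 to 2 with 1 array left out. The 1 neighbour called lower became 0 with no filter, spike-in scaling or 0.01 (0 to 1 with 1 array left out), and the 1 called higher 0 with no filter or at 0.01 (0 to 2). A stricter adjusted p loses calls by construction, and the other causes were not tested. For the 11 genes, 34 of 55 values under another offset or scaling stayed within 1 SD. Of the other 21, 17 came from the offset and 4 from spike-in scaling. The SD is each gene's own, pooled within the 2 preparations, from 0.132 for AT3G18510 to 0.785 for AT5G12420. A gene with arrays far apart could thus move further and still be counted as within 1 SD. With 2 arrays a group, leaving out 1 cannot move a value by more than that SD, so those 44 values are not counted. The sign, which the rule fixed, changed in 0. Signals of protoplasts near those of the Bacillus controls limit how large a difference can be measured. Protein relatives were planned and not run.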
